A study of Gallus gallus with 10 samples.

Results

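EYA and DACH proteins and their partners of the sine oculis homeobox family form the transcription factor network that marks placode progenitors, the ectodermal cells at the rim of the neural plate from which the lens, the olfactory epithelium, the inner ear and the cranial ganglia arise. The 7 genes followed here were SIX2, EYA1, EYA2, EYA3, EYA4, DACH1 and DACH2, and each was taken from every array probe set whose platform annotation gives that gene as its only symbol. The 7 genes were chosen with earlier results of these data known. The rule that took their probe sets used gene names only and no measured value. It found 13 probe sets for 6 of the 7 genes, out of 38439 probe sets on the array that stand for 13009 named genes. SIX2 had none and is not analysed here. Of the 13 probe sets, 10 were tested, for 5 genes, out of 21591 tested probe sets for 9728 named genes.

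The study screened for genes that follow PAX6, a regulator of lens and olfactory fate, in chick placode progenitors. The labels give the stage as HH5-7, and the titles of the uncultured arrays give HH6. Anterior placode progenitors (aPPs) were cut by hand from the anterior preplacodal region and posterior placode progenitors (pPPs) from its posterior part, and the explants were either processed directly or held in rat tail collagen for 5 hr. There were 2 arrays of cultured aPPs, 2 of cultured pPPs, 3 of aPPs and 3 of pPPs, with no other agent and no genetic change in any group. No array holds tissue that stayed in the embryo for those 5 hr, so an effect of culture cannot be told apart from one of added age. The labels number the arrays of each group as sets and do not say that sets are separate batches of embryos, so the p-values measure only the spread between these samples, which may be technical.

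The roles of these proteins differ. Sine oculis homeobox proteins are homeodomain factors that bind DNA. EYA proteins do not bind DNA themselves but join the homeodomain factors on their targets as coactivators, and they also carry a protein phosphatase domain. DACH proteins, relatives of the corepressors SKI and SKIL, act with both as cofactors and are often repressive. In Drosophila the matching genes sine oculis, eyes absent and dachshund build the eye, and in vertebrates EYA1 and EYA2 are used as general markers of the preplacodal region.

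The measured value is the MAS5 signal, a linear intensity in arbitrary units (a.u.) for each probe set. It was quantile normalized over the 10 arrays, because the medians of the deposited signals lie between 6.2 and 21.3. Differences are given as log2 of the normalized signal plus 16, so that they are smaller than the ratio of the signals where a gene is dim. A probe set was tested when MAS5 called it present on at least 2 of the 8 arrays whose calls could be assigned, and a difference was called at an adjusted p below 0.05 in limma, with Benjamini-Hochberg adjustment over all 21591 tested probe sets. Levels of different probe sets are not compared, since each has its own probes. Arrays hold a mixture of cells, so fewer cells that express a gene and less RNA per cell cannot be told apart.

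The labels are doubtful for 1 array. The array that its sample label names cultured pPP set 2 correlated better with a cultured aPP array (r = 0.985 over all tested probe sets) than with the other cultured pPP array (r = 0.979), and in a second deposited table the same signals stand in a column named as cultured aPP set 2. Among genes called between aPPs and pPPs, this array read 30.8 a.u. for PAX7, 110 for ZEB2, 241 for DRAXIN and 47.0 for SST1. The other cultured pPP array read 32.1, 150, 318 and 44.4. The cultured aPP arrays read 4.41 and 4.09, 15.4 and 5.39, 45.6 and 57.0, and 140 and 225. GATA3, MSX2 and CCND1, also called there, overlapped between the cultured regions. Which region this array holds was not tested. The group of this array was taken from the sample label. Called results of cultured pPPs are also given without it for the members and most named genes of the network. For the tissue markers they are not. The other cultured pPP array then stands alone, and limma takes its spread from the other groups. The array labelled aPP set 1 likewise correlated best with pPP set 1 (r = 0.986) and less with its own group (at most 0.982). A column header of the second table calls the array of cultured aPP set 1 a re-scan. MAS5 called 44.7 to 50.2 percent of probe sets present, depending on the array.

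Ectodermal identity could be checked with 7 tested genes of 9 listed, whose summed signal was 9238 to 9357 a.u. in cultured aPPs, 8116 to 8939 in cultured pPPs, 9008 to 9945 in aPPs and 6163 to 7930 in pPPs. EPCAM led this sum, at 2733 to 3543 in aPPs and 2854 to 3044 in pPPs. The other ectodermal genes summed to 6208 to 6403 in aPPs and 3309 to 5050 in pPPs. KRT7 and GATA3 were called higher in aPPs than in pPPs (log2 difference 1.63 and 1.39, adjusted p = 0.00117 and 0.0284 in limma). KRT7 and CDH1 were called higher in cultured pPPs than in pPPs (1.49 and 0.74, adjusted p = 0.00478 and 0.00735), calls lost without cultured pPP set 1. Markers of other tissues differed between the same groups. The summed signal of 9 mesodermal genes, of 15 listed, was 1811 to 2194 in cultured aPPs, 936 to 1264 in cultured pPPs, 1136 to 1384 in aPPs and 258 to 622 in pPPs. Most of this sum was FOXC2, the only gene of the 9 with a call, at 1708 to 1908 in cultured aPPs, 746 to 1037 in cultured pPPs, 1037 to 1196 in aPPs and 160 to 435 in pPPs. The other 8 summed to 103 to 286 in cultured aPPs, 189.96 to 227 in cultured pPPs, 99.2 to 196 in aPPs and 98.5 to 187 in pPPs. For all 8 listed neural crest genes the sums were 421 to 515 in cultured aPPs, 1007 to 1430 in cultured pPPs, 249.6 to 317 in aPPs and 377 to 414 in pPPs. Much of the sum in cultured pPPs was TFAP2B, at 397 to 586, against 25.5 to 50.3 in pPPs. DRAXIN read 241 to 318 in cultured pPPs and 119 to 129 in pPPs, and SNAI2 94.8 to 200 and 26.7 to 49.4. FOXD3, SOX9, SOX10 and ETS1 had no call in any comparison. For 5 of 10 mesendodermal and endodermal genes the sums were 478 to 610.2 in cultured aPPs and 209.8 to 258 in cultured pPPs. In aPPs they were 507 to 2038, and in pPPs 265 to 349.6. HHEX alone read 222 to 1391 in aPPs and 162 to 188 in pPPs. SOX17, HHEX and SST1 were called higher in aPPs than in pPPs (log2 difference 2.19, 1.81 and 2.07, adjusted p = 0.0181, 0.0480 and 0.000732 in limma). Over all tested probe sets 1.89 percent were called there. SOX17 lost its call without aPP set 1, aPP set 3, pPP set 2 or pPP set 3 (adjusted p up to 0.0899). HHEX lost its call without any 1 array other than aPP set 2 (adjusted p up to 0.234). The sums of 6 of 8 neural plate genes were 468 to 566 in cultured aPPs, 502 to 649 in cultured pPPs, 782 to 1021 in aPPs and 699 to 1170 in pPPs. CDH2 made up 424 to 695 of this in aPPs and 261 to 440 in pPPs, and the other 5 genes 327 to 358 and 438 to 820. Among them, ZEB2 and NKX6-2 were called lower in aPPs than in pPPs (log2 difference -2.95 and -1.09, adjusted p = 0.000242 and 0.0253 in limma). NKX6-2 lost its call without aPP set 2, aPP set 3 or pPP set 2 (adjusted p up to 0.128). The 4 tested blood and endothelial genes, of 9 listed, summed to between 24.2 and 65.0 a.u. on every array. SOX2, TBX6, FOXC1, TBX1, GSC, SHH, LMO2 and CDH5 were called present on fewer than 2 arrays. The part of these tissues in the differences described next was not tested.

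EYA2, used in the study as a general placode progenitor marker, had the largest difference of the EYA genes in aPPs minus pPPs, in cultured pPPs minus pPPs and in cultured aPPs minus cultured pPPs, without a call in any of them. Its single probe set (Gga.1839.1.S1_at) was present on all 8 arrays with calls. The normalized signal was 309 and 373 a.u. in cultured aPPs, 247 and 211 in cultured pPPs, 466, 253 and 230.4 in aPPs, and 199.6, 92.7 and 176 in pPPs. Every aPP array thus exceeded every pPP array, every cultured aPP array exceeded every cultured pPP array, and both cultured pPP arrays exceeded all pPP arrays. The lowest value was that of pPP set 2 and the highest that of aPP set 1, 5.03 times as much, the widest range of any member present on all 8 arrays.

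In group means EYA2 stood at 341 ± 45.7 a.u. in cultured aPPs (SD, n = 2), 229 ± 25.1 in cultured pPPs (SD, n = 2), 317 ± 129.9 in aPPs (SD, n = 3) and 156 ± 56.3 in pPPs (SD, n = 3). The difference of aPPs minus pPPs was 0.94 on the log2 scale (SE 0.27, 95% interval 0.38 to 1.51), a ratio of 1.92. It did not pass the limma test after adjustment (adjusted p = 0.105). Nor did it pass in any of 20 alternatives, among them the set number as a term (lowest adjusted p = 0.0566 in limma). Within the sets it was 1.16, 1.31 and 0.36 in sets 1, 2 and 3. Without aPP set 1 it was 0.64 (adjusted p = 0.303) and without pPP set 2 it was 0.64 (adjusted p = 0.493), so these 2 arrays carry part of its size. The other comparisons of EYA2 also missed the threshold. Cultured pPPs minus pPPs gave 0.56 (95% interval -0.07 to 1.20, adjusted p = 0.34), and cultured aPPs minus cultured pPPs gave 0.54 (95% interval -0.15 to 1.24, adjusted p = 0.648). Without the doubtful array these were 0.67 and 0.44 (adjusted p = 0.362 and 0.666). Cultured aPPs minus aPPs gave 0.16 (95% interval -0.47 to 0.80, adjusted p = 0.843).

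**Figure D1:**
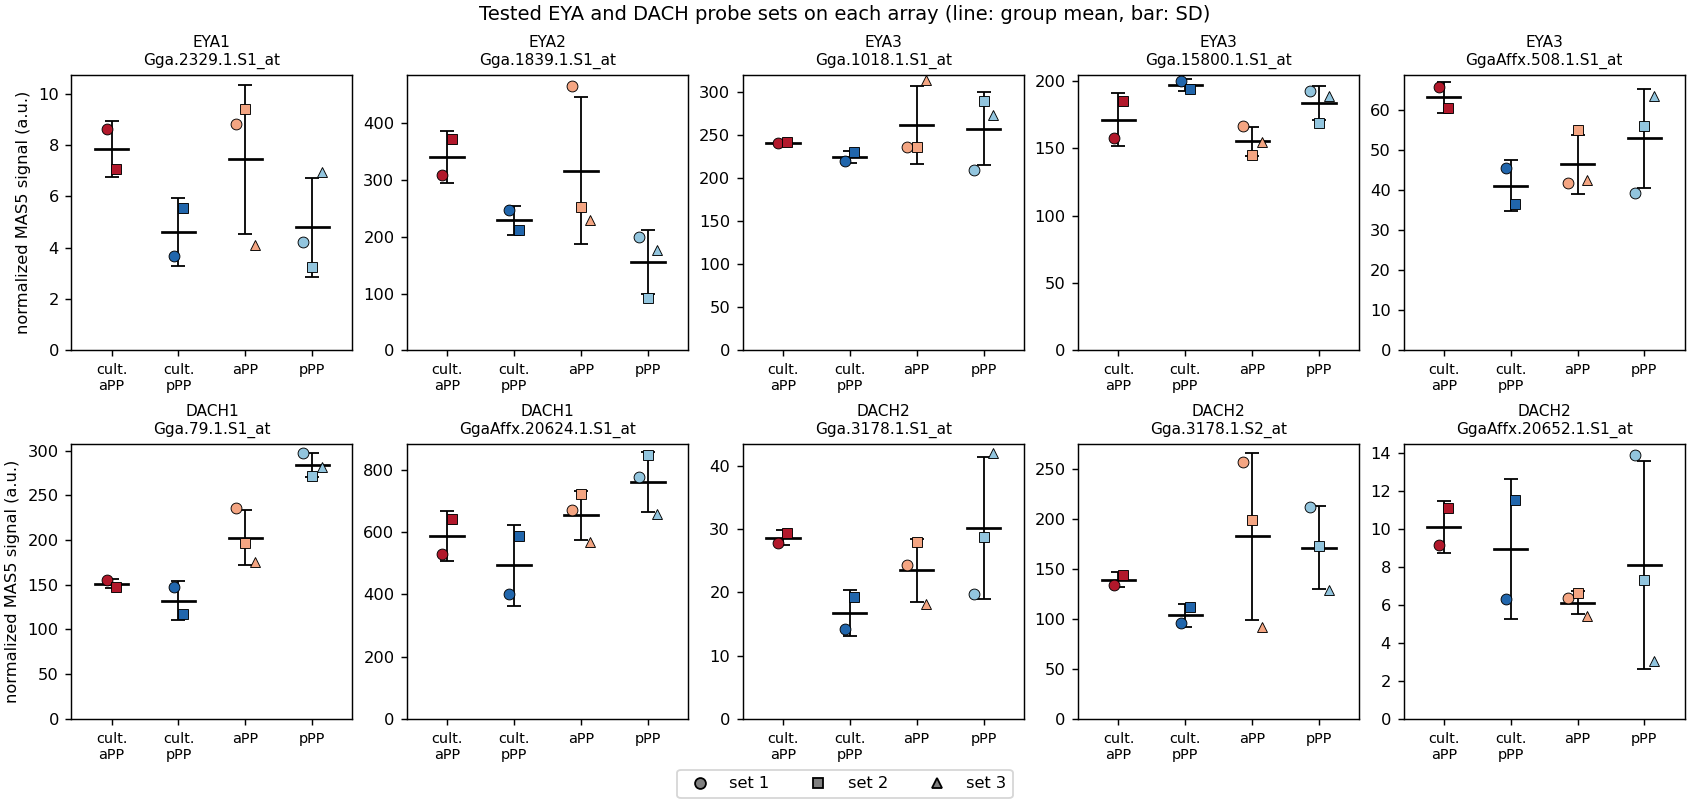
Normalized MAS5 signal (a.u., linear axis from 0) of the 10 tested EYA and DACH probe sets on each of the 10 arrays. Each panel is a probe set with its own axis, each point an array (circle, square and triangle for sets 1, 2 and 3), each horizontal line a group mean and each bar the SD over n = 2 cultured or n = 3 uncultured arrays. The 3 pPP arrays of DACH1 (Gga.79.1.S1_at) lie at 272 to 298 a.u., above all other arrays, and the 3 pPP arrays of EYA2 lie below all other arrays.

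EYA1, whose human counterpart is mutated in branchio-oto-renal syndrome, was close to background. Its tested probe set (Gga.2329.1.S1_at) was present on 3 of 8 arrays, namely 2 of the 3 aPP arrays and 1 of the 3 pPP arrays. The signal was 8.62 and 7.07 a.u. in cultured aPPs, 3.68 and 5.55 in cultured pPPs, 8.83, 9.39 and 4.12 in aPPs, and 4.21, 3.23 and 6.96 in pPPs. Aside from aPP set 3, the anterior arrays were above the posterior ones, and aPP set 3 lay below 2 of the 3 pPP arrays. The log2 difference of aPPs minus pPPs was 0.17 (95% interval -0.15 to 0.49, adjusted p = 0.865 in limma). The other EYA1 probe set (GgaAffx.9953.1.S1_at) had no present call and read between 0.26 and 5.42 a.u., so that at this signal no difference in EYA1 was detectable.

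EYA4, known in humans for hereditary deafness, could not be tested. Its probe sets Gga.420.1.S1_s_at and GgaAffx.24324.1.S1_at had no present call, with signals of 0.2 to 5.7 and 0.38 to 8.16 a.u. over the 10 arrays. These values are not well above background and give no order of the groups.

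EYA3, the EYA gene that is expressed in many tissues, was present on all 8 arrays with all of its 3 probe sets and passed no test. For Gga.1018.1.S1_at the signal was 240.7 and 242 a.u. in cultured aPPs, 219.6 and 230.1 in cultured pPPs, 236, 236 and 314 in aPPs, and 209, 289 and 274 in pPPs, so that the uncultured groups overlap almost completely. Gga.15800.1.S1_at read 157 and 185 a.u. in cultured aPPs, 199.8 and 194 in cultured pPPs, 166, 145 and 154 in aPPs, and 193, 169 and 189 in pPPs. It is the only tested member probe set whose posterior arrays all exceeded the anterior arrays both with and without culture, by a small margin: aPPs minus pPPs was -0.22 on the log2 scale (95% interval -0.57 to 0.12, adjusted p = 0.793), and cultured aPPs minus cultured pPPs was -0.19 (95% interval -0.61 to 0.23, adjusted p = 0.81), or -0.21 without the doubtful array (adjusted p = 0.72). GgaAffx.508.1.S1_at ran the other way after culture, with 65.9 and 60.4 a.u. in cultured aPPs, 45.6 and 36.6 in cultured pPPs, 41.8, 55.0 and 42.6 in aPPs, and 39.4, 56.2 and 63.5 in pPPs. Its difference of cultured aPPs minus cultured pPPs was 0.48 (95% interval -0.02 to 0.98, adjusted p = 0.571), or 0.36 without the doubtful array (adjusted p = 0.593).

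The 3 EYA3 probe sets did not move together. Their log2 levels correlated across the 10 arrays with r = -0.43, 0.28 and -0.28 in pairs, a description of arrays that share groups and sets. Over the 10 arrays the highest EYA3 signal was 1.5, 1.38 and 1.80 times the lowest for the 3 probe sets, narrower than for EYA2 (5.03) or DACH1 (2.54 and 2.11).

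DACH1 fell in cultured pPPs. The probe set Gga.79.1.S1_at read 155 and 148 a.u. in cultured aPPs, 147.5 and 117 in cultured pPPs, 236, 196 and 176 in aPPs, and 298, 272 and 282 in pPPs. All 3 pPP arrays stood above all others, the 3 aPP arrays came next, and the 4 cultured arrays were lowest, with no overlap between these levels. The means were 151 ± 5.11 in cultured aPPs (SD, n = 2), 132 ± 21.4 in cultured pPPs (SD, n = 2), 203 ± 30.9 in aPPs (SD, n = 3) and 284 ± 13.1 in pPPs (SD, n = 3).

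Cultured pPPs minus pPPs gave -1.02 on the log2 scale for this probe set (SE 0.19, 95% interval -1.42 to -0.62), a ratio of 0.492, with an adjusted p of 0.00658 in limma. Without the doubtful array cultured pPP set 2 it was -0.87 (adjusted p = 0.0389), and without cultured pPP set 1 it was -1.17 (adjusted p = 0.0323). The deposited signals, before normalization, also keep these groups apart, with 107 and 119.6 a.u. in cultured pPPs and 471, 231 and 212 in pPPs. A test on them gave -1.22 but lost the call (adjusted p = 1.00).

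The other differences of this DACH1 probe set missed the threshold. Cultured aPPs minus aPPs was -0.38 (95% interval -0.78 to 0.02, adjusted p = 0.335). Before culture, aPPs minus pPPs was -0.46 (95% interval -0.82 to -0.10, adjusted p = 0.273 in limma), below 0 in all 3 sets (-0.32, -0.44 and -0.64). After culture the regions lay closer, with 0.18 for cultured aPPs minus cultured pPPs (95% interval -0.26 to 0.62, adjusted p = 0.83), or 0.03 without the doubtful array (adjusted p = 0.966). The test of the difference between the culture responses, pPPs minus aPPs, gave -0.64 (95% interval -1.21 to -0.07, adjusted p = 0.766 in limma), or -0.50 without the doubtful array (adjusted p = 0.529), so the difference between the responses of pPPs and aPPs was not called.

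The second DACH1 probe set (GgaAffx.20624.1.S1_at) read 530.5 and 643 a.u. in cultured aPPs, 402 and 586 in cultured pPPs, 670.4, 722 and 569 in aPPs, and 778, 849 and 659 in pPPs. Both cultured pPP arrays again lay below all pPP arrays, while cultured aPPs and aPPs overlapped. Cultured pPPs minus pPPs was -0.62 (SE 0.18, 95% interval -1.0 to -0.25), a ratio of 0.649, and missed the threshold (adjusted p = 0.0652 in limma). The call and size depended on which cultured pPP array was used: without the doubtful array, set 2, the difference was -0.89 and passed (adjusted p = 0.0222), and without set 1 it was -0.36 and did not (adjusted p = 0.526). The 2 DACH1 probe sets correlated with r = 0.69 over the 10 arrays.

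**Figure D2:**
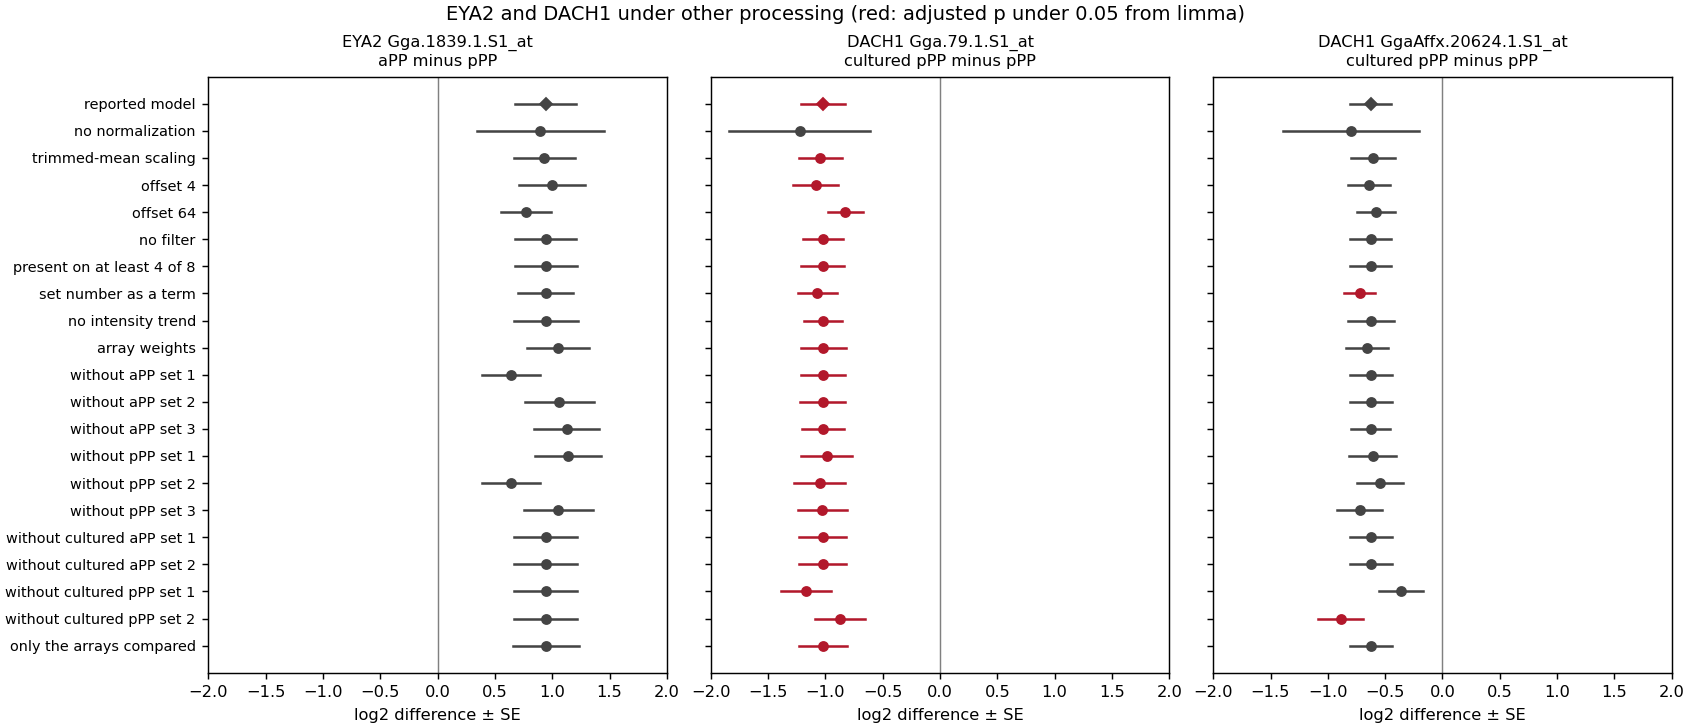
Log2 difference ± SE of EYA2 (aPPs minus pPPs) and of both DACH1 probe sets (cultured pPPs minus pPPs) under each way of processing, with the reported model as a diamond on top and red for an adjusted p under 0.05 in limma. Gga.79.1.S1_at was called in 19 of 20 alternatives and GgaAffx.20624.1.S1_at in 2 of 20, and EYA2 was above 0 in all 20 but called in none.

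DACH2, which in chick somites acts with EYA2 and PAX3 in the muscle lineage, had 3 probe sets and no called difference in the model without the set number. Gga.3178.1.S2_at read 134 and 144.5 a.u. in cultured aPPs, 95.7 and 112 in cultured pPPs, 257, 199 and 92.5 in aPPs, and 212, 173 and 129 in pPPs. Among themselves the aPP arrays span a 2.78-fold range that covers all other arrays, and both cultured pPP arrays lie below the 3 pPP arrays. Cultured pPPs minus pPPs was -0.63 (95% interval -1.28 to 0.03, adjusted p = 0.301 in limma), and -0.72 without the doubtful array (adjusted p = 0.338). Gga.3178.1.S1_at read 27.8 and 29.4 a.u. in cultured aPPs, 14.2 and 19.3 in cultured pPPs, 24.4, 27.9 and 18.1 in aPPs, and 19.7, 28.8 and 42.0 in pPPs. Cultured pPPs again lay just below all pPPs, with a difference of -0.47 (95% interval -0.94 to -0.00, adjusted p = 0.271 in limma), and -0.58 without the doubtful array (adjusted p = 0.269). GgaAffx.20652.1.S1_at, present on 5 of 8 arrays, stayed between 3.06 and 13.9 a.u. Its cultured pPP and pPP arrays overlapped, with a difference of 0.07 (95% interval -0.35 to 0.48, adjusted p = 0.901 in limma), or -0.09 without the doubtful array. Both cultured aPP arrays (9.15 and 11.1 a.u.) exceeded the 3 aPP arrays (5.42 to 6.62), without a call. The 3 DACH2 probe sets correlated with r = 0.30, -0.34 and 0.21 in pairs over the 10 arrays.

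Across the 10 tested member probe sets, which are not independent because probe sets of 1 gene read the same RNA, the comparisons ran as follows. For counts of signs and of unadjusted p under 0.05, the share over all tested probe sets was not computed, so these counts are description only. In cultured pPPs minus pPPs 1 probe set was called, the fall of DACH1, where 3.93 percent of all tested probe sets were called, and 3 had an unadjusted p under 0.05. The median difference was -0.22, against -0.01 over all tested probe sets, with 3 probe sets above 0 and 7 below. Without the doubtful array 2 were called, both of DACH1, and the median was -0.18, with 2 above 0 and 8 below. The groups did not overlap for 2 probe sets that were higher (EYA2 and EYA3, with a background of 17.2 percent) and 4 that were lower (both of DACH1 and 2 of DACH2, with a background of 16.4 percent).

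In cultured aPPs minus aPPs no member was called in limma, against 3.71 percent of all tested probe sets, and none had an unadjusted p under 0.05. The median difference was 0.08, against -0.00 over all tested, and the differences lay between -0.38 and 0.35. Groups without overlap were found for 2 probe sets that were higher (EYA3 and DACH2, with a background of 18.4 percent) and 1 that was lower (DACH1, with a background of 17.7 percent). The DACH2 probe set among them was the dim GgaAffx.20652.1.S1_at, present on 5 of 8 arrays. In aPPs minus pPPs no member was called in limma either, against 1.89 percent of all tested probe sets, while 2 had an unadjusted p under 0.05, EYA2 and DACH1. The median was -0.12, against -0.02 over all tested. EYA2 was the 1 probe set higher without overlap (background 6.83 percent), and a probe set each of DACH1 and EYA3 was lower without overlap (background 7.04 percent).

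In cultured aPPs minus cultured pPPs no member was called in limma, against 0.232 percent of all tested probe sets, and none had an unadjusted p under 0.05. The differences were above 0 for 9 of 10 probe sets, with a median of 0.23 against -0.01 over all tested. With 2 arrays against 2, groups without overlap are frequent: 7 member probe sets were higher (1 each of EYA1, EYA2 and DACH1, 2 each of EYA3 and DACH2, with a background of 20.6 percent) and 1 of EYA3 was lower (background 22.7 percent). Without the doubtful array cultured pPP set 2, 9 of 10 were above 0 and the median was 0.32. The culture response of pPPs minus that of aPPs gave no call among the members in limma, against 0.0139 percent of all tested probe sets, and 1 unadjusted p under 0.05, that of DACH1. This difference was below 0 for 9 of 10 probe sets, all but EYA2, with a median of -0.27, or -0.40 without the doubtful array. This comparison shares its arrays with the others, so the signs are not separate evidence.

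The test for any difference among the 4 groups called 1 member probe set, DACH1 Gga.79.1.S1_at (adjusted p = 0.00823 in limma), against 8.24 percent of all tested probe sets. EYA2 followed at an adjusted p of 0.0643 and was called when aPP set 3 or pPP set 1 was left out. The second DACH1 probe set had 0.138 and was called without cultured pPP set 2, and the other 7 lay between 0.44 and 0.867. With the set number as a term, which ties same-numbered arrays of all 4 groups together, cultured ones included, the count was 4, from DACH1, DACH2 and EYA2. That model called 2173 of all 21591 tested probe sets, against 1780 without the term.

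**Figure D3:**
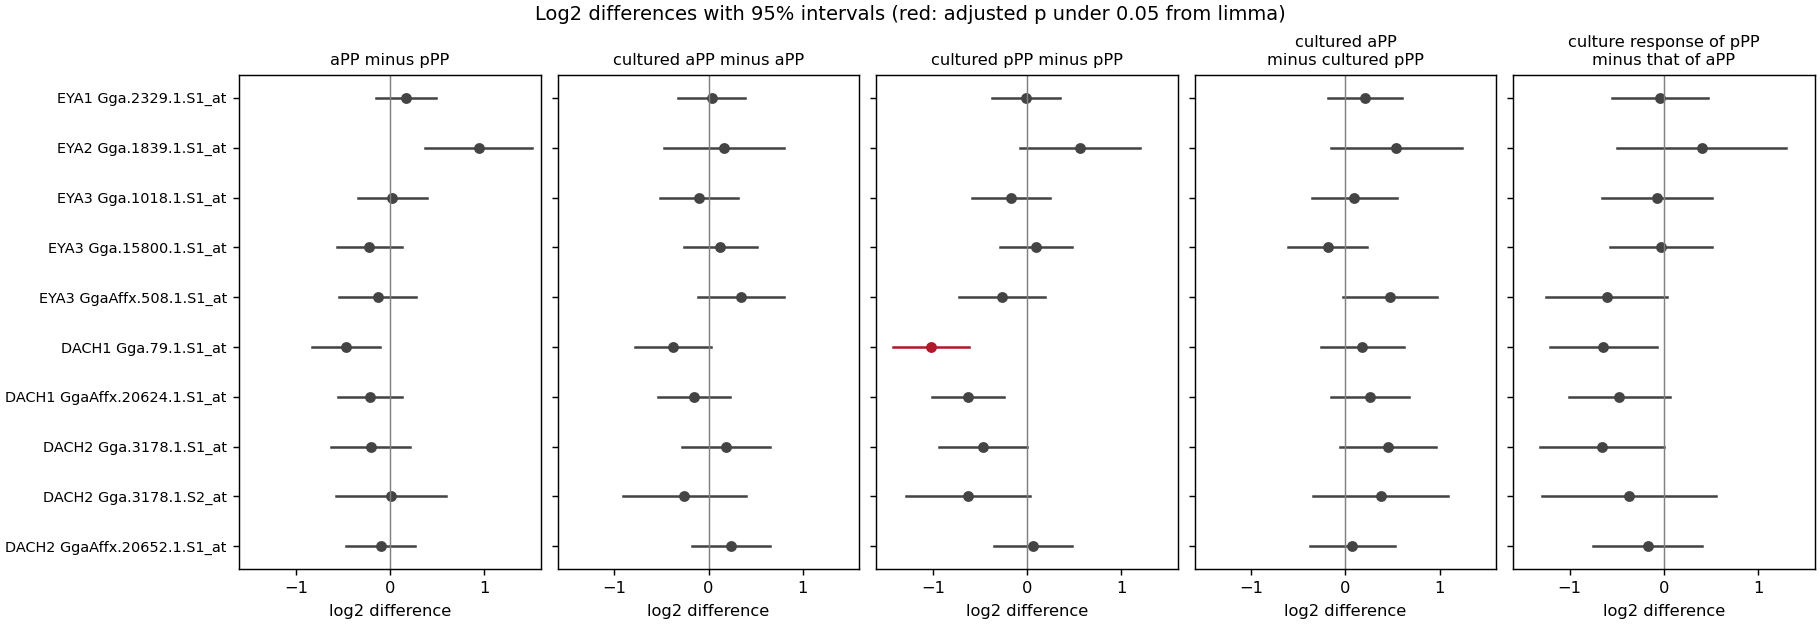
Log2 differences of the 10 tested EYA and DACH probe sets in the 5 comparisons, with 95% intervals from limma and red for an adjusted p under 0.05. Only DACH1 Gga.79.1.S1_at in cultured pPPs minus pPPs is red, at -1.02, and the interval of EYA2 in aPPs minus pPPs (0.38 to 1.51) lies above 0 without passing the adjustment over all probe sets.

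The members were also set beside every other tested gene. By Pearson correlation of log2 levels over the 10 arrays, the named genes most like EYA2 were LPAR1, a receptor for lysophosphatidic acid (r = 0.93), FGF12, a member of the fibroblast growth factor family (r = 0.92), and GATA3, a transcription factor of the nonneural ectoderm (r = 0.92). Those most like DACH1 (GgaAffx.20624.1.S1_at) were the RNA-binding protein gene EWSR1 (r = 0.94), the chloride channel gene CFTR (r = 0.94) and the clock gene CRY1 (r = 0.93). TMEM181, HNRNPR and DLG1 were nearest to DACH2 Gga.3178.1.S2_at (r = 0.94 each). AFDN, HIPK3 and DLG5 were nearest to EYA1 Gga.2329.1.S1_at (r = 0.91, 0.90 and 0.89), a probe set close to background. CRY2, BG8 and PLEKHA1 were nearest to EYA3 Gga.1018.1.S1_at (r = 0.92, 0.92 and 0.91). Each member stands here by 1 probe set, the tested one of highest mean log2 level. The other probe sets correlated with it at r = 0.30 and 0.21 for DACH2 and at -0.43 and 0.28 for EYA3. The genes named are the 3 highest for each member among all other named tested genes, and the points share arrays, groups and sets. Between these same probe sets the correlation was 0.71 for DACH1 with DACH2 and 0.66 for EYA1 with EYA2, and -0.37 for DACH1 with EYA2.

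The DNA-binding partners of EYA and DACH proteins were only partly on the array. Of the sine oculis homeobox genes other than SIX2, 3 were tested, SIX3, SIX5 and SIX6, and SIX4 has no probe set under its symbol. SIX3, a forebrain and anterior placode factor, fell to 40.5 and 30.1 a.u. in cultured pPPs, against 216, 195 and 152 a.u. in pPPs (log2 difference -1.98, adjusted p = 0.00123 in limma). Without cultured pPP set 2 it was -1.84 (adjusted p = 0.0147). SIX3 had no call in cultured aPPs, where it read 127 and 187 a.u., against 233, 101 and 119 a.u. in aPPs. Cultured aPPs minus cultured pPPs was 1.74 (adjusted p = 0.0313), but this call was lost when any 1 of the 4 cultured arrays was left out (adjusted p up to 0.555). SIX5 read 396 and 356 a.u. in cultured aPPs, 414 and 434 in cultured pPPs, 603, 366 and 426 in aPPs, and 459.7, 293 and 502 in pPPs, and SIX6 stayed between 4.13 and 18.4 a.u., neither with a call. SIX5 has 2 further probe sets, Gga.334.1.S1_at and Gga.334.1.S1_s_at, which the deposited descriptions call SIX4 products. They were present on 3 and 0 of 8 arrays and read 0.19 to 15.0 a.u., so no value is given here for SIX4 by name. In RefSeq (GRCg7b) SIX2 lies beside SIX3.

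PAX genes act with this network in several tissues, and 3 of 8 were tested. PAX6, the gene the study screened by, rose in both regions on culture, to 298 and 432 a.u. in cultured aPPs, against 103, 44.1 and 46.2 in aPPs (log2 difference 2.30, adjusted p = 0.000596 in limma), and to 201 and 137 in cultured pPPs, against 35.8, 16.4 and 27.3 in pPPs (2.13, adjusted p = 0.0012). Without cultured pPP set 2 the difference of cultured pPPs minus pPPs was 2.38 (adjusted p = 0.00509). None of the member probe sets rose with a call in either comparison. PAX7, a neural crest and border gene, was not called present on any aPP array and was lower in aPPs than in pPPs (log2 difference -1.15, adjusted p = 0.000377). After culture it was lower in cultured aPPs than in cultured pPPs (-1.23, adjusted p = 0.00741, and -1.25 without cultured pPP set 2, adjusted p = 0.0208), a call lost without cultured aPP set 1, cultured aPP set 2 or cultured pPP set 1 (adjusted p up to 0.165).

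Among 14 ectodermal factors that act before or beside the EYA genes, 11 were tested. In aPPs 2 were higher than in pPPs, GATA3 (1.39, adjusted p = 0.0284) and MSX2 (1.11, adjusted p = 0.0059, not called present on any pPP array), and TFAP2B was lower (-1.24, adjusted p = 0.00947). GATA3 lost its call without aPP set 1, aPP set 3, pPP set 2 or pPP set 3 (adjusted p up to 0.161). MSX2 rose in cultured pPPs over pPPs by 1.55 (adjusted p = 0.0011 in limma), or 1.30 to 1.81 with each array left out. It read 52.5 and 32.1 a.u. in cultured pPPs and 42.3 and 34.8 in cultured aPPs. TFAP2B was higher after culture in both regions, by 1.93 in cultured aPPs and 3.21 in cultured pPPs (adjusted p = 0.000634 and 6.82e-06), and lower in cultured aPPs than in cultured pPPs (-2.52, adjusted p = 0.000687, and -2.79 without cultured pPP set 2, adjusted p = 0.0032). TFAP2C was also higher, by 1.18 in cultured aPPs and 1.10 in cultured pPPs (adjusted p = 0.0109 and 0.0165), calls lost without cultured aPP set 1 or cultured aPP set 2 (up to 0.139) and without pPP set 2 or cultured pPP set 1 (up to 0.216). Without cultured pPP set 2 the rise in cultured pPPs was 3.48 for TFAP2B and 1.28 for TFAP2C (adjusted p = 0.000102 and 0.025). In the counts, 3 of the 11 rose and 0 fell in cultured aPPs, and 4 rose and 0 fell in cultured pPPs, or 3 without cultured pPP set 2, where MSX1 was lost. Of all tested probe sets, 1.89 percent were called in either direction in aPPs minus pPPs, 3.71 percent in cultured aPPs minus aPPs and 3.93 percent in cultured pPPs minus pPPs. The medians were 0.44, 0.29 and 0.76 in aPPs minus pPPs and in the culture of aPPs and of pPPs, against -0.02, -0.00 and -0.01 over all tested probe sets.

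Cofactors and relatives of DACH proteins mostly did not pass. Of 14 listed, 12 were tested. With all 10 arrays the only call was TLE4, a Groucho corepressor that sine oculis homeobox proteins bind. It was higher in cultured aPPs than in aPPs by 0.68 (adjusted p = 0.0303 in limma). The call was lost without aPP set 1, aPP set 2, cultured aPP set 1 or cultured aPP set 2. Further calls in this list appeared without cultured pPP set 2, where the other cultured pPP array stands alone. The medians of this list lay between -0.13 and 0.10 in the 5 comparisons. In cultured aPPs minus aPPs 3.71 percent of all tested probe sets were called. EP300, a histone acetyltransferase, had no call with all 10 arrays and read 239 and 572 a.u. in cultured pPPs, against 514, 495 and 502 in pPPs.

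Of 18 genes reported in other tissues as targets of EYA proteins and their homeodomain partners, 10 were tested. CCND1, cyclin D1, was lower in aPPs than in pPPs (log2 difference -1.42), with 462, 348 and 339 a.u. in aPPs and 936, 1111 and 1083 in pPPs (adjusted p = 8.83e-05 in limma). It fell to 536 and 600.5 a.u. in cultured pPPs, against the same 3 pPP arrays (log2 difference -0.86, adjusted p = 0.0082, lost without cultured pPP set 1 at 0.123, and -0.94 without cultured pPP set 2, adjusted p = 0.0214). NEUROG2, a proneural factor, read 29.6 and 37.0 a.u. in cultured pPPs, against 19.1, 15.6 and 8.34 in pPPs (0.71, adjusted p = 0.0499), a call that survived leaving out only 1 of the 10 arrays (0.60 without cultured pPP set 2, adjusted p = 0.18). SALL1, SALL4, SLC12A2, CCNA1, CCNA2, MYC, EZR and NEUROG1 had no call with all 10 arrays. Further calls in this list appeared without cultured pPP set 2, where the other cultured pPP array stands alone. The list medians lay between -0.14 and 0.17. The share called over all tested probe sets was 1.89 percent in aPPs minus pPPs and 3.93 percent in cultured pPPs minus pPPs.

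**Figure D4:**
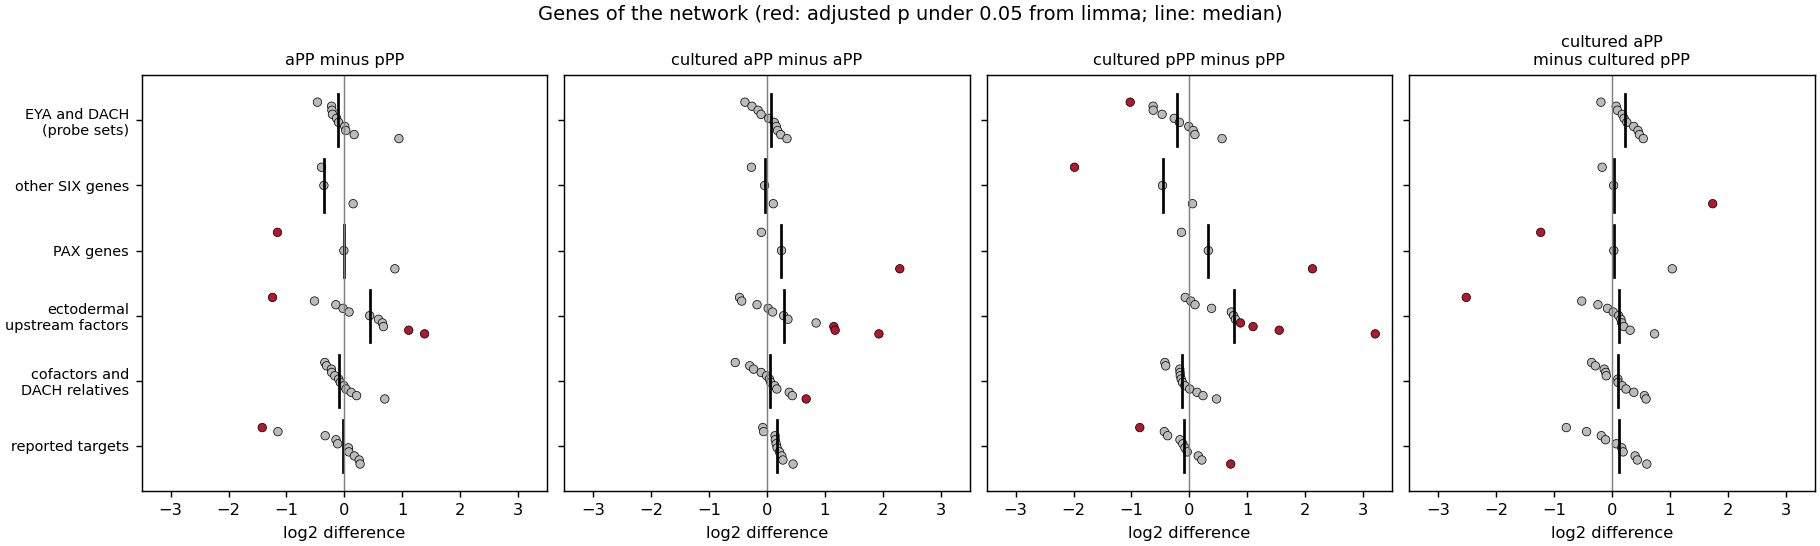
Log2 differences of the member probe sets and of the tested genes of 5 lists in 4 comparisons, with 1 probe set a gene in the lists, a line at each median and red for an adjusted p under 0.05 in limma. The EYA and DACH row holds 10 probe sets, its medians lie between -0.22 and 0.23, and its only red point is DACH1 at -1.02, while SIX3 reaches -1.98 and TFAP2B 3.21 in cultured pPPs minus pPPs.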

How the data were processed

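For each of 10 Affymetrix chicken arrays the authors used total RNA (Absolutely RNA kit) labelled through NuGEN Ovation amplification. They deposited MAS5 signals (linear intensity) and detection calls; the MAS5 version and any genome build are not given in the sources used here. Of the second deposited table, 12 columns that name a sample were not used, among them 2 call columns with the same name. Array controls were left out. Signals of 38439 probe sets were quantile normalized, 16 was added and log2 taken. The 21591 with at least 2 present calls on 8 arrays entered 1 model of 4 group means in limma 3.58.1 (R 4.3.3, lmFit, eBayes with an intensity trend), tested on simulated data. Symbols came from the platform annotation. The members and gene lists were chosen with earlier results of these data known. Of each list of the network up to 4 called genes with the largest differences are named. MSX1, the tissue markers named singly and genes without a call were named after their values were seen. Same-numbered aPP and pPP arrays deviated together (r = 0.439, 0.182 and 0.226 in sets 1, 2 and 3), and the set number as a term was an alternative. Figures used matplotlib 3.10.9 in Python 3.11.15.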

Additional observations from a re-analysis of the deposited data

How the results depend on the processing

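In cultured pPPs minus pPPs the count of 1 called member probe set was 0 without normalization, where the median of all tested probe sets itself lay at -0.20 (and at -0.19 in cultured aPPs minus aPPs), and between 1 and 2 with each array left out, the 2 being both DACH1 probe sets without cultured pPP set 2. The count for any difference was 0 without normalization, 2 with array weights (DACH1 and EYA2) and between 1 and 2 with an array left out. The cause was not tested. With the set number as a term, a replicate block, the counts were 3 in cultured pPPs minus pPPs (both DACH1 probe sets, and DACH2 at -0.91 with an adjusted p of 0.0288 in limma) and 4 for any difference. Over all 21591 tested probe sets the block called 1170 and 2173 in these comparisons. Cultured and uncultured arrays of the same number showed little common deviation (r = -0.00805 and 0.0772 in aPPs, 0.0648 and -0.106 in pPPs). With 2 cultured arrays in each region these values cannot settle whether the number pairs them with uncultured arrays, and the labels do not say. The block changed no other count, and the other 4 comparisons had 0 called members under every alternative. Of 50 differences, 19 changed sign under at least 1 alternative, none of them called on either side. Over all tested probe sets the calls ranged from 18 to 1170 in cultured pPPs minus pPPs (849 reported), from 34 to 1614 in cultured aPPs minus aPPs (801) and from 58 to 569 in aPPs minus pPPs (408). For any difference they ranged from 166 to 2665 (1780). Signals near background limit EYA1 and EYA4, and the number of arrays limits the precision of all members.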
